A study of Mus musculus with 6 samples.

Results

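Aminoacyl-tRNA synthetases are the enzymes that join each amino acid to its transfer RNA, the step that supplies the ribosome with charged tRNA. The set described here held 39 of the 47643 genes in the table. They were chosen by name, as the rows whose symbol equalled that of a cytosolic synthetase (20 genes), a mitochondrial synthetase (16 genes) or a scaffold protein of the multi-synthetase complex (3 genes). RNA-seq was done on sorted leukaemic granulocyte-monocyte progenitors (L-GMP), immature myeloid cells of a mouse acute myeloid leukaemia, in 3 knockout (KO) and 3 wild-type (WT) libraries. KO cells, per the labels, lacked Prkaa1 and Prkaa2, which encode both catalytic subunits of AMPK, the kinase that senses low cellular energy. WT cells carried neither knockout, and both groups came from C57BL/6 mice. The sources used here give neither the exons deleted, nor the promoter of any Cre, the oncogene behind the leukaemia, or the age and number of the mice, and the libraries of a genotype may be technical repeats, in which case p-values measure the spread between those libraries alone.

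In mammalian cells the cytosolic and mitochondrial ribosomes use separate sets of synthetases, nearly all encoded by separate nuclear genes, the mitochondrial ones usually named with a final 2. Several cytosolic synthetases sit in one large multi-synthetase complex held together by the scaffold proteins. ATF4 is the transcription factor of the integrated stress response: amino acid shortage or stress in the endoplasmic reticulum leads to phosphorylation of the initiation factor eIF2, which favours translation of Atf4 mRNA, and ATF4 then switches on genes of amino acid supply, including many cytosolic synthetases. The 20 cytosolic genes were therefore described in 2 groups, 12 generally listed as ATF4 targets (ATF4-listed) and 8 others.

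The deposited values are FPKM, reads divided by gene length and by a factor for each library. A gene was tested where its mean over the 6 libraries was at least 1 FPKM, which 9108 genes and 38 members passed, Vars2 being the exception. The test was limma's on log2(FPKM + 1), and rose or fell is written where the Benjamini-Hochberg adjusted p over all 9108 genes was under 0.05. A log2 change is KO over WT on that scale, which understates the change of a gene at a few FPKM. Prkaa1 measured 1.11, 0.735 and 0.548 FPKM in the KO libraries, against 2.01, 2.20 and 1.80 FPKM in the WT libraries, with every KO library below every WT library (39.8% of the WT mean, limma adjusted p = 0.00112). Prkaa2 was at most 0.0220 FPKM in any KO library and at most 0.0178 FPKM in any WT library, too low to check the label.

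All 20 cytosolic synthetases and all 3 scaffold proteins fell in KO L-GMP, while the mitochondrial synthetases split, 6 lower, 6 higher and 3 not passing the test. Summed over the 20 cytosolic synthetases, the level was 638 ± 18.4 FPKM in KO and 1260.3 ± 2.38 FPKM in WT (SD, n = 3 each), so that KO held 50.7% of the WT sum. Summed over the 16 mitochondrial synthetases, it was 191 ± 3.93 FPKM in KO and 196 ± 3.56 FPKM in WT, or 97.8%. Of the 38 members tested, 29 fell and 6 rose by limma's adjusted p, among 9108 genes of which 40.4% fell and 38.0% rose. Libraries did not overlap between genotypes for any of these 35 members; over all genes tested, 41.6% had every KO library below every WT library and 39.1% the reverse. Of the members that fell, 12 lay at or below 50% of the WT mean, as did 17.6% of all genes tested. The median log2 change of the members tested was -0.81, beside -0.02 for all genes tested.

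The scale of the FPKM values differed between the genotypes. FPKM summed to between 649611 and 653819 in a KO library and between 463683 and 475654 in a WT library, and the 10 highest genes of each library held 31.3% to 31.9% of that sum in KO and 10.5% to 10.7% in WT. With libraries rescaled to equal sums, the median of all genes moved to -0.45 and that of the members to -1.28. All 23 cytosolic and scaffold genes still fell, and of the 6 mitochondrial genes that rose, Lars2, Cars2 and Iars2 still did. Reads recovered from the FPKM steps numbered 12366577 to 14018677 per KO library and 11385230 to 16408235 per WT library. The factors by which the FPKM values divide were not these totals: they came to 11400436 to 12937928 reads for a KO library, below its total in each case, and to 12710036 to 18096883 reads for a WT library, above its total in each case. In bulk RNA, fewer cells of a type and less RNA per cell cannot be told apart.

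Markers of other myeloid cells differed between the same libraries. All 8 granulocyte-monocyte progenitor markers averaged over 1 FPKM in KO and 7 of 8 in WT, where Kit averaged 0.25 FPKM, and their sum ranged from 17062 to 17373 FPKM in KO and from 8246 to 8565 FPKM in WT. These markers moved both ways. Kit, Mpo, Elane, Prtn3 and Ctsg had higher means in KO, and Elane alone averaged 7923 FPKM in KO and 1758 FPKM in WT. Cd34, a surface antigen of progenitors, was 3.51 ± 0.157 FPKM in KO and 27.8 ± 0.840 FPKM in WT. Fcgr3 (51.8% of the WT mean) and Ms4a3 (85.1%) were also lower in KO. The 8 markers of maturing neutrophils summed to between 71589 and 72980 FPKM in KO and between 320.4 and 335 FPKM in WT. The 7 markers of basophils, mast cells and eosinophils summed to 544 to 576 FPKM in KO and 29.8 to 36.2 FPKM in WT, and 8 erythroid markers to 78.4 to 82.6 FPKM in KO and 12.3 to 15.1 FPKM in WT. The 4 monocyte markers summed to 105.5 to 116 FPKM in KO and 381 to 396 FPKM in WT, and the 5 B cell markers to 1.90 to 3.23 FPKM in KO and 51.5 to 56.8 FPKM in WT, with Pax5 at 0 in every library. T cell markers (5, with Cd3e and Cd8a at 0) stayed at or below 2.26 FPKM and endothelial and stromal markers (4, with Cdh5 and Col3a1 at 0) at or below 2.79 FPKM in every library, and the 3 megakaryocyte markers, with Gp1ba at 0, at or below 14.1 FPKM. The part of these differences in the results below was not tested.

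**Figure D1:**
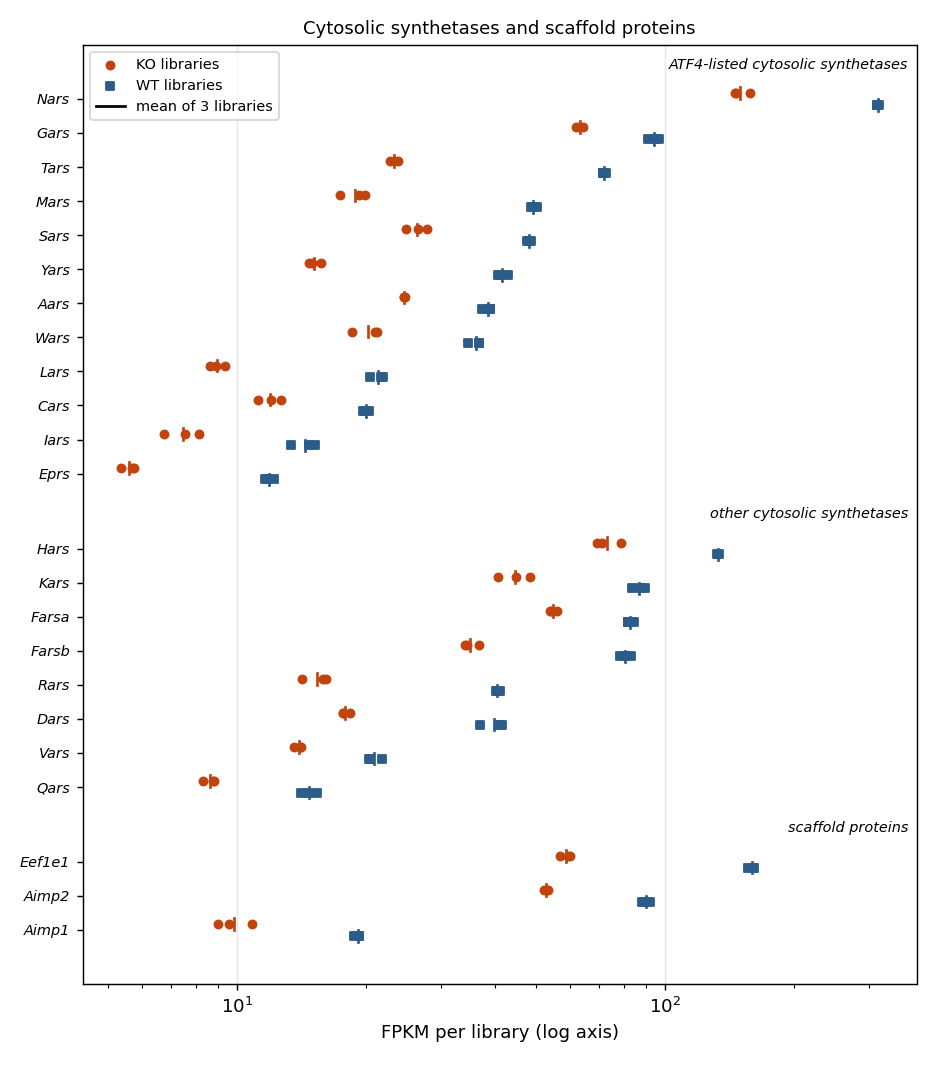
FPKM of each cytosolic synthetase and scaffold protein in every library, on a log axis, KO as circles and WT as squares, with a line at the mean of 3 libraries. In all 23 rows the KO circles lie left of the WT squares, and Nars has the highest and Eprs the lowest FPKM in each genotype.

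Among the ATF4-listed synthetases, the largest falls were those of Tars, Yars, Mars and Lars, the enzymes for threonine, tyrosine, methionine and leucine. Tars measured 22.7, 23.3 and 23.7 FPKM in the KO libraries, against 71.7, 71.7 and 72.6 FPKM in the WT libraries. The libraries of a genotype lay within 1 FPKM of each other, and KO held 32.3% of the WT mean (log2 change -1.59, SE 0.03, limma adjusted p = 1.69e-08). Yars measured 15.7, 14.7 and 14.9 FPKM in KO, against 40.7, 41.1 and 42.9 FPKM in WT, or 36.3% of the WT mean (log2 change -1.40, limma adjusted p = 1.06e-07). Mars measured 19.3, 17.4 and 19.8 FPKM in KO, against 49.0, 50.1 and 48.6 FPKM in WT, or 38.3% (log2 change -1.34, limma adjusted p = 3.5e-07). For both genes the highest KO library stood below 50% of the lowest WT library. Lars, which has also been described as a leucine sensor upstream of mTORC1, measured 8.62, 8.92 and 9.38 FPKM in KO, against 20.4, 21.7 and 21.9 FPKM in WT, again without overlap (42.0%, log2 change -1.16, limma adjusted p = 6.95e-07).

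The other 8 ATF4-listed genes fell by less, to between 47.0% and 67.0% of the WT mean. Nars, for asparagine, had the highest FPKM of the cytosolic synthetases in both genotypes. It measured 145, 147 and 158 FPKM in KO, against 313, 315 and 313 FPKM in WT (47.8%, limma adjusted p = 1.28e-07). Eprs, a single protein that charges the tRNAs of glutamate and of proline, had the lowest FPKM, at 5.58 ± 0.215 in KO and 11.9 ± 0.287 in WT (47.0%). Its FPKM divide by 18102 exonic bases, where its longest transcript has 4906, so that this rank depends on the length used. Of the genes between Nars and Eprs in FPKM, Iars (isoleucine) stood at 51.9%, Sars (serine) at 54.8%, Wars (tryptophan) at 56.1% and Cars (cysteine) at 59.7% of the WT mean. The smallest changes were those of Aars, for alanine, at 24.6 ± 0.110 FPKM in KO and 38.5 ± 1.01 FPKM in WT (63.9%, log2 change -0.62), and of Gars, for glycine, at 63.1 ± 1.10 FPKM in KO and 94.1 ± 2.92 FPKM in WT (67.0%, log2 change -0.57, limma adjusted p = 2.51e-06). Gars is one of the few genes whose product serves both the cytosol and the mitochondrion.

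Several ATF4-listed promoters hold the sequence through which ATF4 and C/EBP proteins are known to act, the C/EBP-ATF response element. RefSeq promoters (GRCm38.p6, 250 bases before to 50 after each start) were matched for 30 of the 39 members and searched on both strands for TGATGNAA, whose reverse complement reads TTNCATCA. The motif was in 5 of the 8 matched ATF4-listed promoters (62.5%: Aars, Gars, Iars, Tars and Yars), in 0 of 5 other cytosolic, 0 of 14 mitochondrial and 0 of 3 scaffold genes, and in 4.51% of the 27025 genes of the table. The more specific TGATGCAA, which is contained in it, was in 4 of the 8 and in 1.03% of all genes. The stretches below run 5′ to 3′ on the gene's own strand, stop short of the start site, and are shown because Tars had the largest fall of the group and Aars and Gars the smallest; capitals mark the motif.
Tars: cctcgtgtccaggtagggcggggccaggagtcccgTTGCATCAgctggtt
Aars: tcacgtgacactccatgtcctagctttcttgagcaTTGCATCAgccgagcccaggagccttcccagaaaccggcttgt
Gars: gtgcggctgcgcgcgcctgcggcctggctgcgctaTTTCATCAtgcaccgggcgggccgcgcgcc
They lie at chr15:11399659-11399708 (minus strand) for Tars, chr8:111033695-111033772 (plus strand) for Aars and chr6:55037936-55038000 (plus strand) for Gars, where the motif begins at position -15, -112 and -30 from the start site. In Iars and Yars the 8-base match, TTGCATCA and TGATGCAA, begins just past the start, at positions 7 and 3, and Aars holds a second match there, TTTCATCA, at position 9. Genes with the motif thus included the largest fall (Tars, 32.3%) and the smallest (Gars, 67.0%) of the ATF4-listed group. A match describes these windows and says nothing of binding.

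The 8 cytosolic synthetases outside the ATF4 list fell as well, to between 38.0% and 66.8% of the WT mean, with a median log2 change of -0.90, beside -0.92 for the 12 ATF4-listed genes and -0.02 for all genes tested. Rars, for arginine, fell furthest: 16.2, 15.9 and 14.2 FPKM in KO, against 40.4, 40.2 and 41.0 FPKM in WT (38.0%, log2 change -1.34, SE 0.05, limma adjusted p = 4.26e-07). Dars, for aspartate, measured 18.3, 17.7 and 17.7 FPKM in KO, against 41.2, 41.5 and 36.9 FPKM in WT (44.9%, log2 change -1.11, limma adjusted p = 9.61e-07). Kars, for lysine and, like Gars, active in both compartments, measured 40.8, 44.8 and 48.3 FPKM in KO, against 83.7, 87.6 and 89.5 FPKM in WT (51.3%, log2 change -0.95, limma adjusted p = 5.29e-06). In each of these 3 genes the KO libraries lay well under the WT libraries, and Kars spread most within a genotype. Hars (histidine) stood at 55.0%, Qars (glutamine) at 58.8% and Vars (valine) at 66.8% of the WT mean.

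Phenylalanyl-tRNA synthetase is built from an alpha subunit, Farsa, and a beta subunit, Farsb, and its 2 mRNAs fell unequally. Farsb measured 34.3, 34.1 and 36.7 FPKM in KO, against 83.0, 80.8 and 78.3 FPKM in WT (43.4%, log2 change -1.18, limma adjusted p = 1.91e-07). Farsa measured 55.8, 54.2 and 53.7 FPKM in KO, against 82.1, 81.9 and 84.7 FPKM in WT (65.8%, log2 change -0.59, limma adjusted p = 1.24e-06). The ratio of Farsa to Farsb within a library, which does not depend on how libraries are scaled, was 1.62, 1.59 and 1.46 in KO and 0.989, 1.01 and 1.08 in WT. The ratio was thus higher in every KO library than in every WT library. These FPKM divide by 4538 exonic bases for Farsa and 2620 for Farsb, where the longest transcripts have 1826 and 2036. Which subunit mRNA was the more abundant therefore cannot be read from the ratio.

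The medians of the ATF4-listed and other cytosolic groups kept no fixed order. With Vars counted among the ATF4-listed genes, the medians were -0.86 for the ATF4-listed and -0.95 for the others. With Gars and Kars left out, they were -0.97 for the ATF4-listed and -0.86 for the others. Rescaled to equal sums, they were -1.40 for the ATF4-listed and -1.38 for the others. Their sums were as close: the ATF4-listed genes summed to 375 ± 11.4 FPKM in KO and 761 ± 2.68 FPKM in WT (49.3%), the others to 263 ± 7.05 FPKM in KO and 499 ± 0.703 FPKM in WT (52.7%). No test of the difference between the groups was made.

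**Figure D2:**
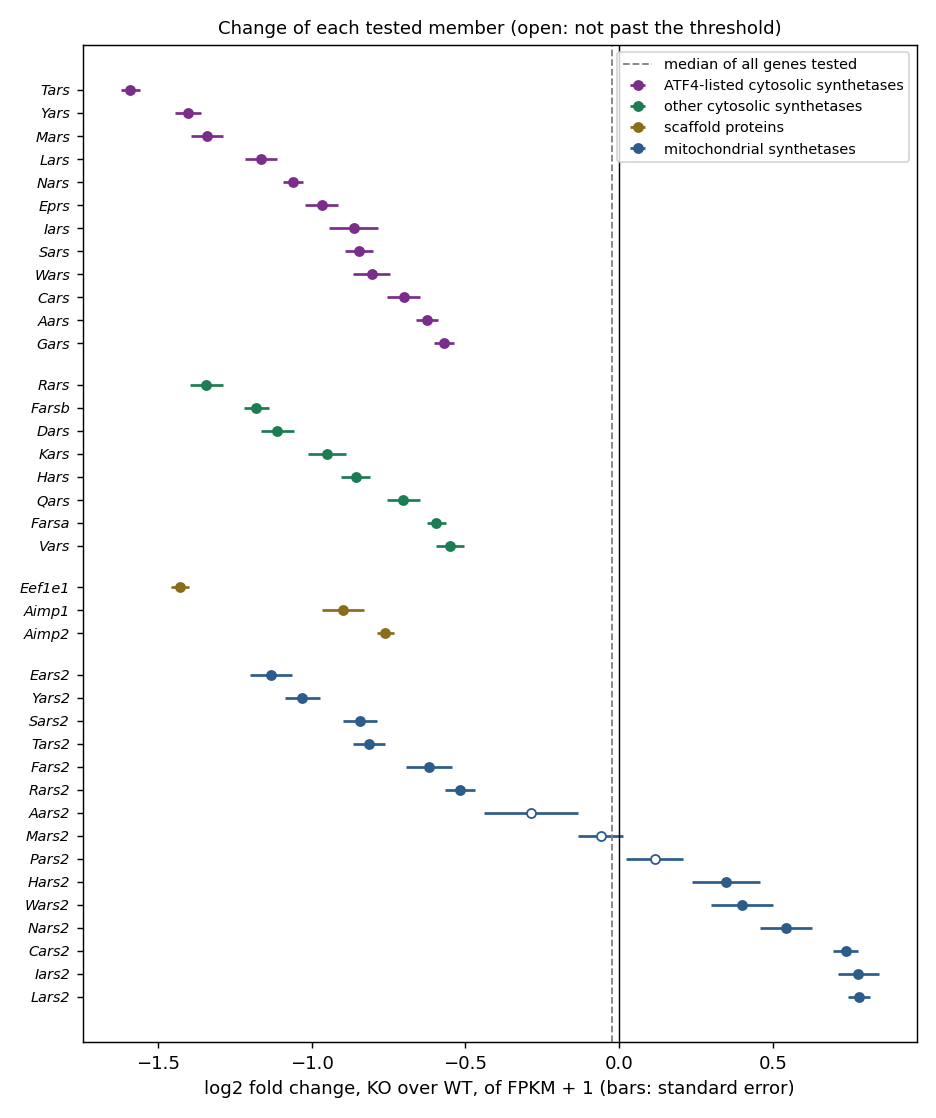
Log2 change of each tested member, KO over WT on FPKM + 1, with its standard error, by group; open points did not pass the test and the dashed line is the median of all genes tested (-0.02). All cytosolic and scaffold points lie left of 0, between -1.59 and -0.55, while the mitochondrial points run from -1.13 to 0.78.

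The scaffold proteins fell with the synthetases they hold. Eef1e1 (AIMP3), which also resembles subunits of the elongation factor eEF1, measured 59.2, 56.9 and 59.8 FPKM in KO, against 156, 161 and 160.5 FPKM in WT (36.8%, log2 change -1.43, SE 0.03, limma adjusted p = 2.07e-08). Aimp1, precursor of the cytokine EMAP II, measured 8.996, 10.8 and 9.59 FPKM in KO, against 18.8, 19.3 and 19.2 FPKM in WT (51.4%, log2 change -0.90, limma adjusted p = 1.23e-05). Aimp2, the core of the complex, measured 52.9, 53.2 and 52.2 FPKM in KO, against 92.0, 89.8 and 88.4 FPKM in WT (58.6%, log2 change -0.76, limma adjusted p = 2.62e-07). Each scaffold gene was lower in every KO library, and the order of the 3 genes by FPKM was the same in both genotypes. The 8 synthetase genes of the complex (Dars, Eprs, Iars, Kars, Lars, Mars, Qars and Rars) all fell, with a median log2 change of -1.04 and a sum of 127 ± 3.49 FPKM in KO and 279 ± 2.37 FPKM in WT (45.7%). The 12 cytosolic genes outside it had a median of -0.83 and a sum of 511 ± 15.5 FPKM in KO and 981 ± 1.20 FPKM in WT (52.1%). The difference between the complex and the rest was not tested.

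Among the mitochondrial synthetases that fell, Ears2 and Yars2 were lowest relative to WT. Ears2 charges the mitochondrial tRNAs of both glutamate and glutamine with glutamate, and measured 0.850, 0.902 and 0.945 FPKM in KO, against 3.16, 3.16 and 3.17 FPKM in WT. Every KO library was thus far under the 3 nearly identical WT values, at 28.4% of the WT mean over 172 reads in KO and 732 reads in WT (log2 change -1.13, SE 0.07, limma adjusted p = 3.8e-06). Yars2 (tyrosine) measured 12.3, 11.3 and 10.97 FPKM in KO, against 24.3, 25.7 and 23.7 FPKM in WT (46.9%, log2 change -1.03, limma adjusted p = 2.27e-06). Sars2 (serine) measured 8.78, 8.15 and 8.24 FPKM in KO, against 14.99, 16.4 and 16.1 FPKM in WT (53.0%). Tars2 (threonine) measured 13.002, 12.1 and 11.7 FPKM in KO, against 23.1, 21.8 and 22.1 FPKM in WT (55.0%). The genotypes did not overlap in any of these 4 genes. Fars2 (phenylalanine) fell to 63.8% (limma adjusted p = 0.000165) and Rars2 (arginine), at 19.9 ± 0.616 FPKM in KO and 28.9 ± 1.44 FPKM in WT, to 68.7% of the WT mean.

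Vars2, for mitochondrial valine, was below the level needed for the test and nearly unread in KO. It measured 0.0286, 0 and 0.0142 FPKM in KO, against 0.389, 0.395 and 0.416 FPKM in WT. This came from 3 reads over the KO libraries and 98 over the WT libraries, a read ratio of 0.0370 after dividing by the library factors that the FPKM values imply, with an exact 95% counting interval of 0.00751 to 0.111 that covers counting error alone.

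Lars2, Cars2 and Iars2, for mitochondrial leucine, cysteine and isoleucine, rose, and each was higher in every KO library. Lars2 measured 66.9, 67.5 and 65.7 FPKM in KO, against 38.7, 39.7 and 37.0 FPKM in WT (173%, log2 change 0.78, SE 0.04, limma adjusted p = 7.85e-07). Cars2, which is also known to make persulfidated cysteine, measured 30.6, 30.5 and 32.2 FPKM in KO, against 18.7, 17.8 and 18.3 FPKM in WT (170.3%, log2 change 0.74, limma adjusted p = 2.18e-06). Iars2 measured 4.63, 4.45 and 4.69 FPKM in KO, against 2.33, 2.15 and 2.30 FPKM in WT (203%, log2 change 0.78, limma adjusted p = 2.22e-05). After rescaling to equal sums the log2 changes were smaller, at 0.32 for Lars2, 0.29 for Cars2 and 0.47 for Iars2, and still passed the test. Lars2 had the highest FPKM of the mitochondrial synthetases in both genotypes. In WT its reads (6721) were fewer than those of Tars2 (6932), whose FPKM divide by more exonic bases. The reads of Lars2 were recovered at a length found by search, 3881 bases, and depend on it.

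Nars2, Wars2 and Hars2 rose by less and their calls depended on the scale. Nars2 (asparagine) measured 3.46, 3.10 and 3.88 FPKM in KO, against 2.08, 2.05 and 2.08 FPKM in WT (168%, log2 change 0.54, limma adjusted p = 0.000673; rescaled 0.23, limma adjusted p = 0.0592). Wars2 (tryptophan) measured 3.16, 2.70 and 2.39 FPKM in KO, against 1.63, 1.94 and 1.94 FPKM in WT (149.6%, log2 change 0.40, limma adjusted p = 0.0081; rescaled 0.09, limma adjusted p = 0.503). Hars2 (histidine) measured 5.43, 4.37 and 3.97 FPKM in KO, against 3.68, 3.36 and 3.08 FPKM in WT (136%, log2 change 0.35, limma adjusted p = 0.0222; rescaled -0.030, limma adjusted p = 0.829). The lowest KO library stood only a little above the highest WT library in Hars2, and the call was lost without KO replicate 1 (limma adjusted p = 0.0515), without WT replicate 2 (limma adjusted p = 0.0572) and without WT replicate 3 (limma adjusted p = 0.0751).

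Aars2, Mars2 and Pars2 did not pass the test, and their libraries overlapped between genotypes. Aars2 (alanine) measured 4.67, 4.17 and 2.86 FPKM in KO, against 4.28, 5.36 and 5.12 FPKM in WT (79.2%, log2 change -0.29, SE 0.15, limma adjusted p = 0.121). Without KO replicate 1, its highest KO library, the log2 change was -0.40 and passed (limma adjusted p = 0.0496), as it did in a voom test on the recovered reads (log2 change -0.36, limma adjusted p = 0.0424) and with libraries rescaled (log2 change -0.73, limma adjusted p = 0.00419). Mars2 (methionine) measured 2.66, 2.64 and 3.03 FPKM in KO, against 2.93, 2.86 and 3.02 FPKM in WT (94.6%, log2 change -0.06, SE 0.07, limma adjusted p = 0.476; rescaled -0.46, limma adjusted p = 0.00141). Pars2 (proline) measured 3.74, 4.54 and 3.50 FPKM in KO, against 3.46, 3.48 and 3.64 FPKM in WT (111%, log2 change 0.12, SE 0.09, limma adjusted p = 0.28; rescaled -0.28, limma adjusted p = 0.0301).

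**Figure D3:**
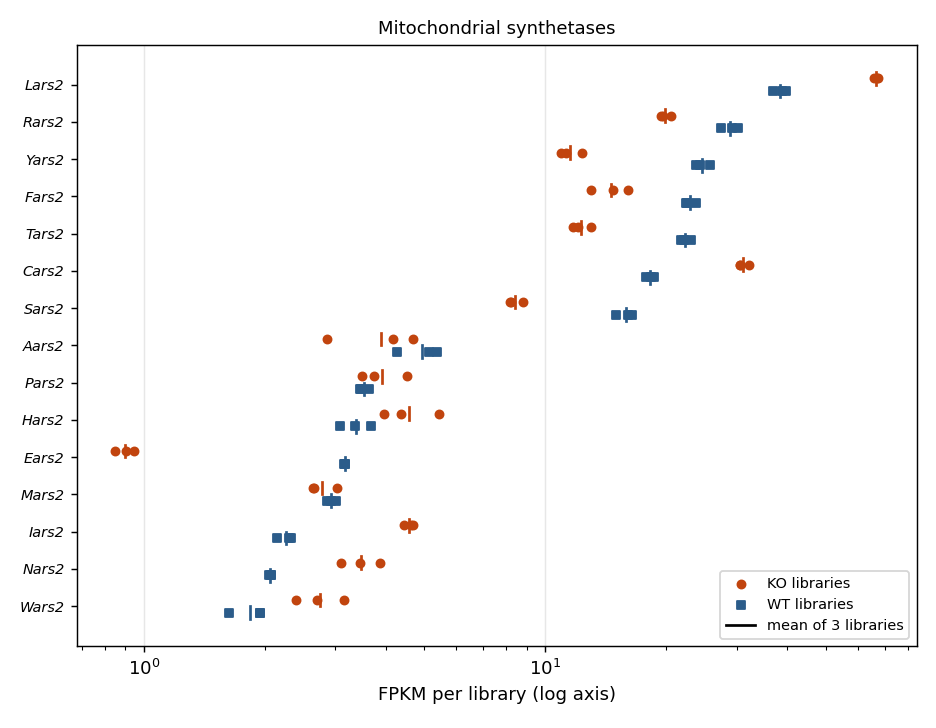
FPKM of 15 mitochondrial synthetases in every library, on a log axis, KO as circles and WT as squares, with a line at the mean of 3 libraries; Vars2 is left out because a KO library is at 0. Lars2, Cars2, Iars2, Nars2, Wars2 and Hars2 have their circles right of the squares, and Ears2 has them farthest left.

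Cytosolic and mitochondrial enzymes were paired by symbol, Lars with Lars2 for instance, since their ratio within a library does not depend on how libraries are scaled. This gave 13 pairs, of which 12 had a ratio in every library; Eprs with Ears2 or Pars2, and Farsa or Farsb with Fars2, do not match by symbol and were not compared. The ratio was lower in every KO library than in every WT library for 10 of the 12 pairs. With 3 libraries a genotype, the exact two-sided permutation test cannot go below p = 0.1, which these 10 pairs reached (adjusted p = 0.12 over the 12 pairs), so that no pair could pass 0.05. Lars to Lars2 was 0.129, 0.132 and 0.143 in KO, against 0.528, 0.546 and 0.594 in WT, a difference of -2.05 in log2 ratio. Iars to Iars2 was 1.45, 1.70 and 1.73 in KO, against 6.52, 6.19 and 6.39 in WT, a difference of -1.97. Nars to Nars2 was 42.1, 47.3 and 40.6 in KO, against 151, 154 and 151 in WT, a difference of -1.81. These were the largest differences among the 12 pairs, and in each the cytosolic gene fell and the mitochondrial one rose.

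In 2 pairs the partner with the higher FPKM changed. Cars was below Cars2 in the KO libraries, at ratios of 0.365, 0.393 and 0.394, and above it in the WT libraries, at 1.09, 1.13 and 1.07. Rars to Rars2 was 0.824, 0.819 and 0.688 in KO, against 1.34, 1.38 and 1.501 in WT. The cytosolic enzyme therefore had the lower FPKM of the pair in KO and the higher in WT for cysteine and for arginine. The side of 1 on which a ratio lies depends on the lengths by which FPKM divide. These were 6583 bases for Cars and 1846, found by search, for Cars2, where the longest transcripts have 3222 and 1902. For Rars and Rars2 they were 3228 and 2771 bases, where the longest transcripts have 2109 and 1868. The difference in log2 ratio was -1.41 for Wars, -1.30 for Hars and for Mars, -0.77 for Tars and -0.37 for Yars. Ratios overlapped between genotypes for Aars to Aars2 (difference -0.29, exact permutation p = 0.3) and Sars to Sars2 (difference 0.05, exact permutation p = 0.5). Sars and Sars2 fell to 54.8% and 53.0% of the WT mean, and their ratio was 3.01, 3.04 and 3.37 in KO, against 3.21, 2.95 and 2.95 in WT. Vars to Vars2, the pair left out of the test because Vars2 was at 0 in KO replicate 2, ran the other way, at 493 in KO replicate 1 and 959 in KO replicate 3, against 52.6, 51.4 and 52.4 in WT. Those KO ratios rest on the 3 reads of Vars2.

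**Figure D4:**
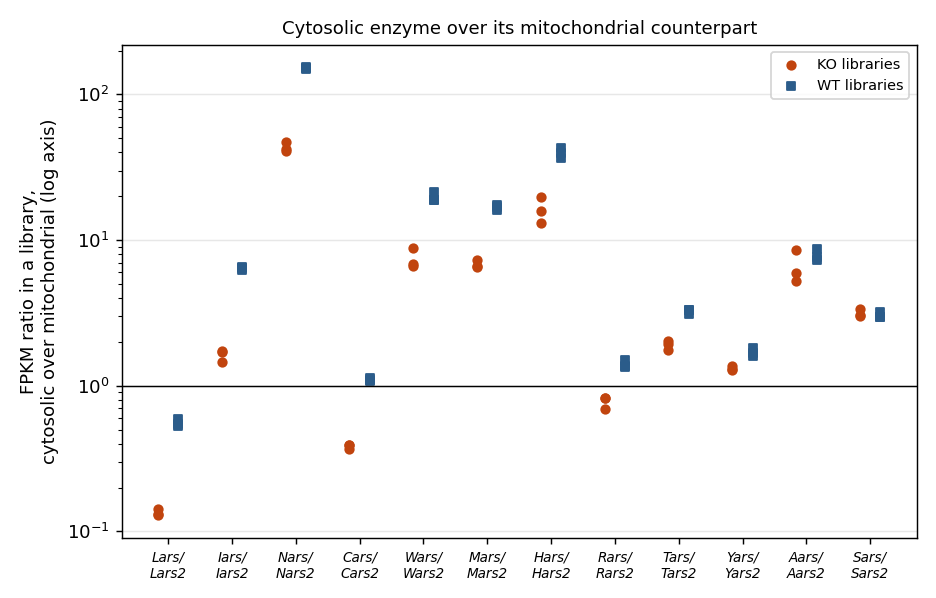
FPKM of the cytosolic enzyme over that of its mitochondrial counterpart within each library, on a log axis, for the 12 pairs with a ratio in every library, KO as circles and WT as squares. KO circles lie below WT squares for every pair but Aars with Aars2 and Sars with Sars2, and those of Cars and Rars lie on the other side of the line at a ratio of 1.

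Some members share exonic bases with a neighbouring gene, and the strand setting of the read counting is not given in the sources used here, so that reads in shared stretches could have been split or lost. Of the members, 15 shared at least some exonic bases, 8 of them over 5% and 2 over 20% (Aimp2 with 29.4% and Iars2 with 24.2%). Of the longest transcript alone, sequence matching another gene made up more, 41.2% in Aimp2 and 37.2% in Iars2. It made up 23.1% in Aars (with Exosc6) and 22.3% in Cars2 (with Naxd). The values of these members are uncertain, and the part of shared reads in them was not tested. Hars and Hars2 lie head to head on chromosome 18 (36766528 to 36783205, minus strand, and 36783008 to 36792562, plus strand, GENCODE M21 on GRCm38), share 195 bases and moved apart, to 55.0% and 136% of the WT mean. Mars (chromosome 10, 127296221 to 127311786, minus strand) overlaps by 68 bases with Ddit3, the stress transcription factor CHOP, which rose to 334% while Mars fell to 38.3%. Aimp2 shares 487 bases with Eif2ak1, an eIF2 kinase that rose to 223% while Aimp2 fell to 58.6%. Iars2 shares 2034 bases with Rab3gap2, which averaged 0.337 FPKM in KO and 0.910 FPKM in WT, 37.0% of the WT mean where Iars2 stood at 203%. In each of these pairs the KO level stood below WT for one neighbour and above it for the other. Fars2 and Lyrm4, a factor of iron-sulfur cluster assembly, share 115 bases and both fell, to 63.8% and 50.9% of the WT mean.

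Sequence shared elsewhere in the genome touches fewer members. Of the Iars transcript, 49.9% matched the processed pseudogene Gm4849 at 95% identity or more over at least 50 bases, and Gm4849 averaged 0.306 FPKM in KO and 0.511 FPKM in WT, far under Iars at 7.47 ± 0.699 FPKM in KO and 14.4 ± 0.967 FPKM in WT. Of the Lars2 transcript, 122 bases (3.13%) matched other transcripts, 72 of them the antisense gene Gm15564, which itself averaged 135 ± 6.26 FPKM in KO and 71.2 ± 3.32 FPKM in WT (190.4%). The part of such reads in the Lars2 value was not tested.

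Beyond the synthetases, 29 generally listed ATF4 targets in amino acid supply and stress control were examined, of which 25 were tested; 18 fell, 6 rose and 1 (Nupr1) did not pass, with a median log2 change of -0.99, where 40.4% of all genes tested fell and 38.0% rose, with a median of -0.02. Cth, cystathionine gamma-lyase of cysteine synthesis, had no read in any KO library and 32.1, 32.2 and 35.3 FPKM in WT, at least 1144-fold lower in KO if 3 reads over the KO libraries are taken as the limit and reads are divided by the same library factors. Stc2, the secreted glycoprotein stanniocalcin-2, averaged 0.404 ± 0.171 FPKM in KO and 19.7 ± 0.172 FPKM in WT (2.05%, limma adjusted p = 4.79e-08). Cebpb, a partner of ATF4, averaged 57.6 ± 2.93 FPKM in KO and 8.26 ± 0.534 FPKM in WT (698%, limma adjusted p = 2.73e-08), and shares 20.7% of its exonic bases with a neighbour. With Cth at that limit the median of the list is unaltered at -0.99.

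The ATF4 targets moved both ways. Asns, asparagine synthetase, fell to 46.7% of the WT mean and Phgdh and Psat1 of serine synthesis to 53.97% and 34.998%. Ddit3, the stress factor CHOP, rose, at 48.2 ± 1.39 FPKM in KO and 14.4 ± 1.28 FPKM in WT (limma adjusted p = 3.15e-07), as did Chac1, a glutathione-degrading enzyme, at 82.6 ± 3.19 FPKM in KO and 47.0 ± 2.73 FPKM in WT (176%), and Cebpg (195%). Slc7a5 and Slc3a2, the light and heavy chain of a transporter of large neutral amino acids, rose to 123% and 105%, both turning lower with libraries rescaled to equal sums. The motif TGATGNAA was in 9 of 26 matched promoters of this list (34.6%). Asns, whose induction by amino acid shortage runs through such an element, is shown for comparison with the synthetase promoters (chr6:7693210-7693267, minus strand, GRCm38.p6, motif at position -23).
Asns: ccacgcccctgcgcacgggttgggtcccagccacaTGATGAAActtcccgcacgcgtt

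Atf4 mRNA itself differed little, at 121, 121 and 118 FPKM in KO, against 113, 115 and 113 FPKM in WT. Each KO library was a little above each WT library (105%, log2 change 0.08, SE 0.02, limma adjusted p = 0.0236), and the direction turned with libraries rescaled to equal sums (log2 change -0.39). ATF4 protein was not measured. Of the 6 tested genes among Atf4, the eIF2 alpha subunit, its kinases and its phosphatase subunits, 3 rose, 1 fell and 2 did not pass, where 38.0% of all genes tested rose. Eif2ak1, the haem-regulated kinase, averaged 6.70 ± 0.657 FPKM in KO and 3.0 ± 0.129 FPKM in WT (223%, limma adjusted p = 2.64e-05), and Ppp1r15b, a constitutive phosphatase subunit, rose to 154%. Eif2s1, eIF2 alpha, fell to 55.0% of the WT mean (limma adjusted p = 2.13e-07). Eif2ak3 and Eif2ak4 were too low to test.

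Of 20 tested genes that make, modify and export tRNA, 15 fell, 1 rose and 4 did not pass (Tsen54, Tsen34, Pop1 and Adat1), with a median log2 change of -0.78. Of all genes tested, 40.4% fell and 38.0% rose, with a median of -0.02. Nsun2, which methylates cytosines of tRNA, averaged 12.3 ± 0.579 FPKM in KO and 52.8 ± 0.729 FPKM in WT (23.2%, limma adjusted p = 2.41e-08). Pus7, a pseudouridine synthase, averaged 0.119 ± 0.0544 FPKM in KO and 2.77 ± 0.157 FPKM in WT (4.31%, limma adjusted p = 9.23e-07). Trmt1, a guanosine methyltransferase, fell to 30.2% and Xpot, the exportin of tRNA, to 31.8% of the WT mean. Thg1l, which adds the guanosine of histidine tRNA, rose, at 3.27 ± 0.200 FPKM in KO and 1.46 ± 0.0711 FPKM in WT (224%, limma adjusted p = 3.94e-05).

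Of the 6 tested genes that proofread or recycle charged tRNA, 3 fell and 3 rose, shares near those of all genes tested (40.4% lower and 38.0% higher). Dtd1, the D-aminoacyl-tRNA deacylase, averaged 2.72 ± 0.463 FPKM in KO and 24.8 ± 1.05 FPKM in WT (10.9%, limma adjusted p = 1.88e-07), and its relative Dtd2 averaged 26.9 ± 1.26 FPKM in KO and 15.5 ± 0.819 FPKM in WT (174%, limma adjusted p = 9.44e-06). Dtd1 thus had a lower FPKM than Dtd2 in KO and a higher one in WT, an order that depends on the gene lengths used. Ptrh2, a peptidyl-tRNA hydrolase, fell to 42.4%, while Ankrd16, a cofactor of the alanyl enzyme, rose to 262% and Prorsd1, a relative of the prolyl-tRNA editing domain, fell to 67.2% of the WT mean.

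Of 7 genes listed under cytosolic elongation factors, 6 fell, 0 rose and Eef2 did not pass (102%, limma adjusted p = 0.31), with a median log2 change of -0.43. Over all genes tested, 40.4% fell and 38.0% rose, with a median of -0.02. The list includes Eef2k, the kinase of eEF2 and not itself an elongation factor, which fell to 79.5% of the WT mean (limma adjusted p = 0.0358). Eef1g and Eef1b2, which recharge the factor that carries charged tRNA to the ribosome, stood at 48.0% and 63.5% of the WT mean, and Eif5a at 60.0%, all past the test. Eef1a1, that carrier, averaged 369 ± 8.78 FPKM in KO and 489.7 ± 7.90 FPKM in WT (75.3%). In a voom test on the recovered reads Eef2 counted as higher, and with libraries rescaled to equal sums it was lower (log2 change -0.44).

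Of 14 mitochondrial translation factor genes, 11 fell, 1 rose and 2 did not pass, where 40.4% of all genes tested fell and 38.0% rose. Their median log2 change was -0.57, beside -0.06 for the mitochondrial synthetases and -0.02 for all genes tested. With libraries rescaled to equal sums it was -1.03, beside -0.46 for the mitochondrial synthetases and -0.45 for all genes. With genes sharing over 5% of exonic bases left out, a choice made after seeing the data, it was -0.86, beside -0.17 for the mitochondrial synthetases. The 3 subunit genes of the amidotransferase that turns the glutamate placed by Ears2 on glutamine tRNA into glutamine were among those that fell furthest. Qrsl1 (subunit A) measured 0.886, 0.841 and 0.449 FPKM in KO, against 10.5, 10.1 and 10.7 FPKM in WT (6.96%, log2 change -2.74, limma adjusted p = 4.42e-07). Gatc (subunit C) measured 5.26, 4.15 and 4.47 FPKM in KO, against 19.2, 19.9 and 20.8 FPKM in WT (23.2%, limma adjusted p = 5.64e-07). Gatb (subunit B) measured 3.38, 4.14 and 2.59 FPKM in KO, against 10.5, 10.7 and 10.4 FPKM in WT (32.1%, limma adjusted p = 2.97e-05). Ears2, at 28.4%, and these 3 genes, which together make the charged glutamine tRNA of the mitochondrion, were each lower in every KO library than in any WT library. Mtrf1, a mitochondrial release factor, fell to 25.9%, its relative Mtrf1l rose to 159% (not past the test with libraries rescaled, limma adjusted p = 0.128), and Tufm, the mitochondrial elongation factor Tu, fell to 54.2% of the WT mean.

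**Figure D5:**
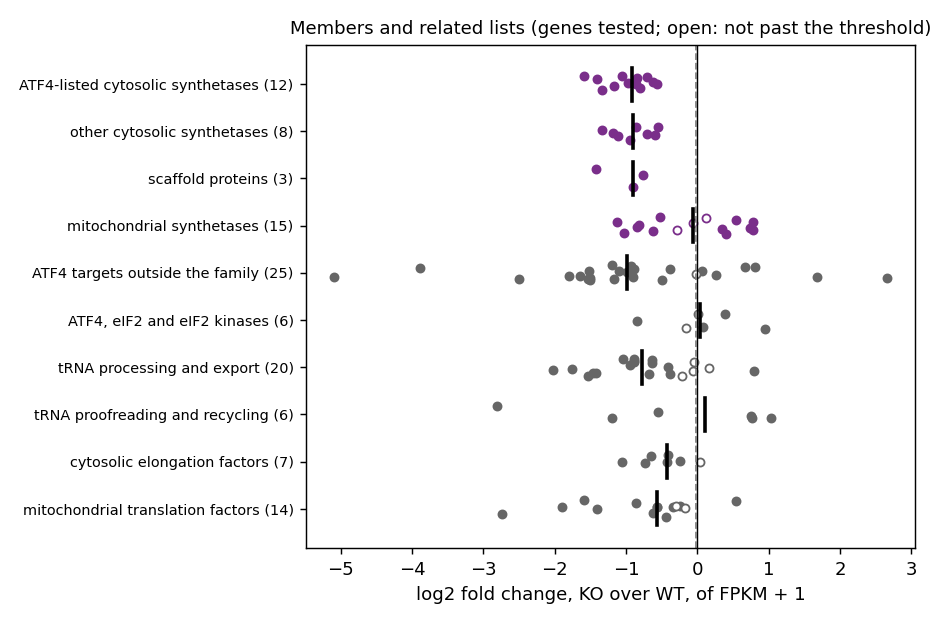
Log2 change, KO over WT on FPKM + 1, of every tested gene in the 4 member groups and the related lists, with a bar at each list's median and the number of genes tested in brackets; open points did not pass the test. The cytosolic and scaffold groups lie wholly left of 0 with medians of -0.92, -0.90 and -0.90, while the mitochondrial synthetases and every related list but the elongation factors hold genes that passed on both sides.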

How the data were processed

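Per the labels' protocols, sorting was into Trizol, followed by column clean-up of RNA, Smart-seq2 amplification, Nextera XT library preparation and NextSeq 500 sequencing. Per the submitters' processing notes, the authors used CASAVA, bcl2fastq, STAR 2.5.3a, DESeq2 1.18.1 and mm10; the counter, annotation and strand setting were not given in the sources used here. The authors deposited FPKM values for 47643 genes in 6 libraries.

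Genes with an average of 1 FPKM or more entered the test, made on log2(FPKM + 1) with limma 3.58.1 (R 4.3.3; linear model of genotype, empirical Bayes with a mean-variance trend, two-sided, Benjamini-Hochberg over 9108 genes). Data were simulated with 9101 genes at this spread, 50 of them changed at each fold. There the test recovered 34% of 1.25-fold, 58% of 1.5-fold, 76% of 2-fold and 92% of 4-fold changes and called 7 unchanged genes. In the real data 78.4% of genes were called, which alters the Benjamini-Hochberg cut-off, so these shares may not carry over. Whole reads were recovered for 99.7% of the 21132 genes above 0 (tolerance 0.001). For 78.0% of the genes above 0 they came from exon lengths of GENCODE M21, which holds 99.1% of the IDs. For 4586 others the shortest length that gave whole reads in all libraries was searched for and used. Of the members, 29 had reads at the GENCODE length and 10 at a searched length, which may not be the authors' length. Recovered reads gave depths, counting intervals and a voom alternative. Replicates differed beyond sampling noise (chi-square 2.51 to 3.19 per degree of freedom). Ratios were tested by exact permutation. Alternatives were other pseudocounts (0.1, 5), filters (a mean of 5 FPKM, none), scalings (equal sums, quantile, cyclic loess), no trend, voom, a replicate block, leaving out each library, and other group membership; leaving out Gars and Kars, or genes sharing over 5% of exonic bases, was chosen after seeing the data.

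The members and lists were chosen with earlier results of these data known. Given by library were, in each member group, the largest changes (up to 4), those not passing, those below the filter and those in the lesser direction; of each list, the 3 largest changes past the test and up to 5 in the lesser direction. Other named genes were chosen after their values were seen.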

Additional observations from a re-analysis of the deposited data

How the results depend on the processing

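Under 16 alternatives of the limma test, 589 of 600 results of single members kept their direction and side of the threshold, 5 lost and 4 gained the call, and 2 reversed. With libraries rescaled to equal sums Pars2 reversed to -0.28 and Hars2 to -0.0297, members higher numbered 3, all of them mitochondrial, and genes higher 2069 (lower 5376). There the list of Atf4, eIF2 and its kinases had 1 higher and 4 lower, and the mitochondrial translation factors 0 higher. At a mean of at least 5 FPKM, 2072 genes were higher and 2383 lower, members higher numbered 2, again mitochondrial, and higher genes 1 among Atf4, eIF2 and its kinases, 0 in tRNA processing and 0 in mitochondrial translation; with every gene above 0 tested, 5769 were lower. Voom gave 1 elongation factor higher (Eef2), and leaving out genes sharing over 5% of exonic bases left 1 higher among Atf4, eIF2 and its kinases. The cause of these moves was not tested, apart from the fewer or more genes tested. The log2 ratio of Sars to Sars2 reversed to -0.0040 on FPKM + 1 and ran from -0.0057 (without KO replicate 3) to 0.0862 when each library was left out. Vars to Vars2, which has no FPKM ratio in KO replicate 2, differed by -0.09 on FPKM + 1, against the direction of its FPKM ratios in the other KO libraries, because the added 1 exceeds Vars2 in every library.

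Leaving out each library in turn gave 3305 to 3380 genes higher and 3507 to 3603 lower, and 5 to 6 members higher and 29 to 30 lower. The same replicate numbers did not pair libraries (correlations of deviations 0.00946, -0.0118 and -0.0166); with replicate number as a block, 3420 genes were higher and 3620 lower and the members stayed at 6 and 29.

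Limits: p-values rest on 3 libraries a genotype, the strand setting, which is not given, leaves overlapping genes uncertain, and values of Vars2 rest on 3 and 98 reads.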
